A study of Homo sapiens with 16 samples.

Results

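The stable p53-Y220C line was compared with the p53-null line it was made from, both given the vehicle DMSO alone. The comparison took every library labelled with that treatment, 4 of the p53-null line and 4 of the p53-Y220C line, which is 8 of the 16 libraries of the series. Both are NCI-H1299 cells, an established human line from a non-small cell lung tumour, in which p53 is missing. The p53-Y220C cells stably carry the p53-Y220C mutant and were kept in medium with 500 µg/mL G418, an antibiotic that selects for an introduced resistance gene, whereas the p53-null cells were kept without it. Treatment lasted 24 h, and polyadenylated RNA was sequenced from frozen cell pellets. The 8 further libraries, 4 of each line, came from cells given 10 µM MS78 for the same time, and they give the same contrast of the lines beside this one. They also entered the same fit, so the filter on low counts and the spread behind every p-value rest on all 16 libraries. With only the 8 DMSO libraries 7526 genes were called in place of 7875. Whether the stable line is 1 clone or a pool, how the mutant was introduced and whether replicates come from separate cultures is not in the labels. The p-values therefore reflect only how far these libraries vary, which may be technical. Line, G418 and the introduced mutant cannot be told apart.

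p53 is a transcription factor that is held at a low level by the ubiquitin ligase MDM2 and that activates genes for cell cycle arrest, DNA repair and apoptosis when cells are stressed. Y220C is a cancer mutation in its DNA-binding domain. It opens a surface crevice that destabilises the folded protein, and small molecules that fill the crevice are one route to restoring its activity. H1299 cells are often used as a host for p53 mutants because they make no p53 of their own.

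Depth was similar in both groups, with 22520909 to 24718912 estimated reads assigned to transcripts in the p53-null libraries and 20651591 to 23152209 in the p53-Y220C libraries. The first principal component of the 8 libraries held 50.8% of the variance and separated the lines, at -38.1 to -34.0 against 34.1 to 38.0. The second, with 16.2%, separated replicate 1 of each line (36.4 and 34.0) from the other 6 libraries (-14.3 to -10.5). Those 2 libraries held leukocyte reads. PTPRC, the pan-leukocyte marker CD45, had 60 reads in p53-null replicate 1 and 55 in p53-Y220C replicate 1, against 0 or 1 in the others. GZMB, a protease of cytotoxic lymphocytes, had 375 and 406 reads there and 0 or 1 elsewhere, while the B cell marker MS4A1 was at 0 in every library. The summed level of 36 leukocyte markers was 170.6 CPM (reads scaled to a library total of 1e6) in p53-null replicate 1 and 91.5 to 98.2 CPM in the other p53-null libraries, and 151.1 against 64.4 to 75.7 CPM in the p53-Y220C line. Outside replicate 1 most of that sum was CD68, which every library expressed. There it had 76.3 to 81.4 CPM in the p53-null and 57.4 to 67.5 CPM in the p53-Y220C line. Both lines carried 1 such library, with similar levels of these markers. A marker read mainly in those libraries could therefore hardly be called between the lines. Of the 28 leukocyte markers tested none rose and 3 fell, against 24.7% and 25.5% of all genes tested. Those that fell, named after their values were seen, were IL7R, CORO1A and CD68. As a check on the labelled cell type, the simple-epithelial keratins KRT8 and KRT18 and the intermediate filament VIM were abundant in every library, at 166 CPM or more, 290.01 CPM or more and 5016 CPM or more. The lung lineage regulator NKX2-1 had only 2 to 6 reads per library, and the epithelial adhesion genes EPCAM and CDH1 stayed at or below 1.97 CPM. Surfactant genes differed from one another: SFTPC and SFTPD were at 0 and SFTPB at 3 reads or fewer in every library, while SFTPA1 reached 90 reads and SFTPA2 98 reads in p53-Y220C replicate 3. ABCA3, a lipid transporter of type II pneumocytes, had 1834 to 2114 reads per library.

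The lines differed at many genes but mostly by little. Of 15687 genes with enough reads to test, 7875 (50.2%) passed a Benjamini-Hochberg adjusted p of 0.05 in edgeR's quasi-likelihood test. In the p53-Y220C line 3882 genes (24.7%) rose and 3993 (25.5%) fell relative to the p53-null line, and the terms rose and fell are used below in that sense for genes past that threshold. Most changes were small: 73.0% of the called genes differed by less than 1.5-fold, and the median size was 0.35 on the log2 scale. At least 2-fold changes were called for 438 genes that rose (2.79%) and 612 that fell (3.9%), and at least 8-fold changes for 58 and 65. All 4 libraries of one line lay beyond all 4 of the other for 6838 genes tested (43.6%). Without replicate 1 of both lines, 3444 genes rose and 3464 fell, of which 449 and 579 did so at least 2-fold.

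**Figure D1:**
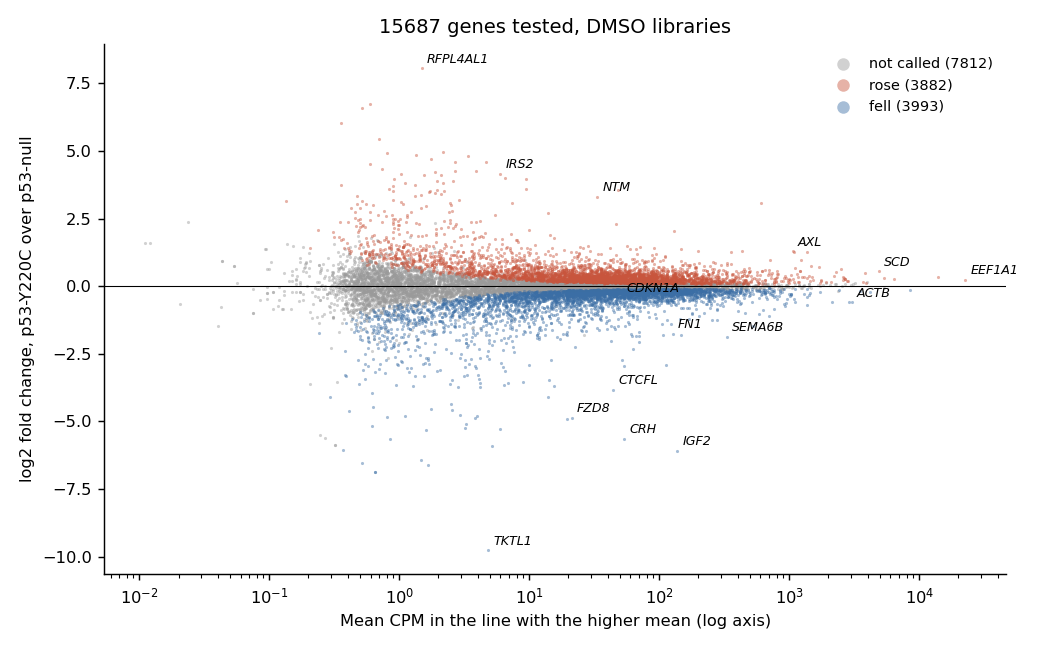
Each point is 1 of the 15687 genes tested, placed by its mean CPM in the line where it was higher (log axis) and its log2 fold change of the p53-Y220C over the p53-null line under DMSO. Red points rose (3882), blue points fell (3993) and grey points were not called (7812); fitted values of genes with few reads, such as TKTL1 and RFPL4AL1, are not bounds.

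Several genes that the p53-null line expressed at a clear level were far lower in the p53-Y220C line. Of these, IGF2 still had 37 to 50 reads and CTCFL 65 to 70 reads in each p53-Y220C library. The largest falls and rises were taken only from genes whose lines do not overlap, so that separation was fixed by the choice. IGF2, the imprinted insulin-like growth factor of fetal tissues, had 131, 133, 143 and 138 CPM in the p53-null libraries and 1.89, 2.41, 2.11 and 1.64 CPM in the p53-Y220C libraries. Every p53-Y220C library was far below every p53-null library, and IGF2 (chr11:2129112-2149603) fell 67.95-fold (log2 fold change -6.09 ± 0.10 (SE), adjusted p = 3.52e-20). CTCFL, the testis paralogue of the insulator protein CTCF, had 40.9, 42.3, 45.98 and 46.4 CPM in the p53-null libraries and 2.79, 3.28, 3.29 and 3.02 CPM in the p53-Y220C libraries. It fell 14.2-fold (adjusted p = 9.89e-19). CRH, the hormone that releases corticotropin, had 53.2, 54.03, 54.6 and 51.1 CPM in the p53-null libraries and 1.41, 1.69, 0.798 and 0.356 CPM in the p53-Y220C libraries. The levels were tight in the p53-null line and near the bottom of the range in the p53-Y220C line, a 50.01-fold fall (adjusted p = 1.48e-16). FZD8, a Frizzled receptor for Wnt ligands, had 21.4, 20.6, 22.4 and 20.1 CPM in the p53-null libraries and 1.07, 0.676, 0.657 and 0.444 CPM in the p53-Y220C libraries. Its p53-Y220C libraries all stayed near or below 1 CPM, and the fall was 29.3-fold (adjusted p = 8.32e-14).

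The same pattern, a level in every p53-null library and little in any p53-Y220C library, held for a transcription factor, a kinase and a membrane protein of antiviral defence. HIVEP3, a large zinc finger transcription factor, had 17.4, 21.7, 18.7 and 20.4 CPM in the p53-null libraries and 0.728, 0.241, 1.22 and 0.356 CPM in the p53-Y220C libraries, a 30.5-fold fall (adjusted p = 2.86e-11). CAMK1, a calcium and calmodulin-dependent kinase, had 16.1, 14.3, 15.6 and 15.8 CPM in the p53-null libraries and 1.11, 1.21, 1.55 and 0.844 CPM in the p53-Y220C libraries, a 13.1-fold fall (adjusted p = 2.84e-14). BST2, also called tetherin, which holds enveloped viruses at the cell surface, had 14.6, 13.5, 14.4 and 12.8 CPM in the p53-null libraries and 1.54, 0.386, 0.704 and 0.533 CPM in the p53-Y220C libraries, a 17.1-fold fall (adjusted p = 2.29e-11). Among the p53-Y220C libraries BST2 was highest in replicate 1, the library with leukocyte reads, and without replicate 1 of both lines its log2 fold change was -4.63 in place of -4.09. RARB, the retinoic acid receptor beta, was read 106 to 140 times per p53-null library and 0 to 3 times per p53-Y220C library. PLD5, of the phospholipase D family, was read 134 to 154 times against 1 to 5 times. C1QTNF12, a secreted protein of fat tissue, had means of 6.33 ± 0.358 CPM in the p53-null and 0.507 ± 0.25 CPM in the p53-Y220C line (12.5-fold lower, adjusted p = 1.36e-10). Means are given with the SD over 4 libraries (n = 4) throughout.

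Some of the largest rises started from low levels in the p53-null line. IRS2, the adaptor that links insulin and IGF receptors to PI3 kinase, had 0.386, 0.517, 0.215 and 0.196 CPM in the p53-null libraries and 5.91, 5.12, 6.1 and 6.58 CPM in the p53-Y220C libraries. All 4 p53-Y220C libraries were above all p53-null libraries, and IRS2 (chr13:109752698-109786568) rose 17.9-fold (log2 fold change 4.16 ± 0.20 (SE), adjusted p = 8.38e-13). LSAMP and NTM encode 2 members of the IgLON family of membrane-anchored adhesion molecules. LSAMP had 0.515, 0.604, 0.689 and 0.589 CPM in the p53-null libraries and 9.86, 7.97, 11.2 and 8.84 CPM in the p53-Y220C libraries, and rose 15.7-fold (adjusted p = 3.9e-13). NTM had 3.65, 3.62, 3.02 and 3.1 CPM in the p53-null libraries and 33.3, 33.6, 32.4 and 33.5 CPM in the p53-Y220C libraries, and rose 9.91-fold (adjusted p = 1.42e-17). EPAS1, the hypoxia-inducible factor 2 alpha, had 0.858, 0.862, 1.16 and 0.628 CPM in the p53-null libraries and 6.77, 6.28, 7.84 and 8.71 CPM in the p53-Y220C libraries, and rose 8.43-fold (adjusted p = 3.92e-11). In these 4 genes the lines did not overlap, which the choice required.

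IFI16, a nuclear sensor of DNA, had 0.944, 0.0431, 0.345 and 0.275 CPM in the p53-null libraries and 5.7, 5.89, 6.34 and 7.96 CPM in the p53-Y220C libraries, and rose 15.99-fold (adjusted p = 1.32e-07). Its highest p53-null value was that of replicate 1, where leukocyte reads were present, and without replicate 1 of both lines the log2 fold change was 4.89 in place of 4.00. RPS6KA2, a ribosomal S6 kinase of the MAP kinase pathway, had 0.944, 0.69, 0.517 and 0.903 CPM in the p53-null libraries and 8.96, 9.51, 9.81 and 9.33 CPM in the p53-Y220C libraries, and rose 12.2-fold (adjusted p = 9.96e-13). MGLL, the lipase that degrades monoacylglycerols, had means of 2.1 ± 0.476 CPM in the p53-null and 13.8 ± 1.27 CPM in the p53-Y220C line (6.59-fold higher). CHST15, which sulfates chondroitin chains, had means of 0.875 ± 0.135 CPM in the p53-null and 5.41 ± 0.573 CPM in the p53-Y220C line (6.17-fold higher). DSP, the desmosomal protein desmoplakin, had means of 9.28 ± 1.07 CPM in the p53-null and 46.1 ± 6.51 CPM in the p53-Y220C line (4.96-fold higher). The adjusted p of these 3 genes were 3.22e-13, 4.21e-11 and 5.77e-13.

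**Figure D2:**
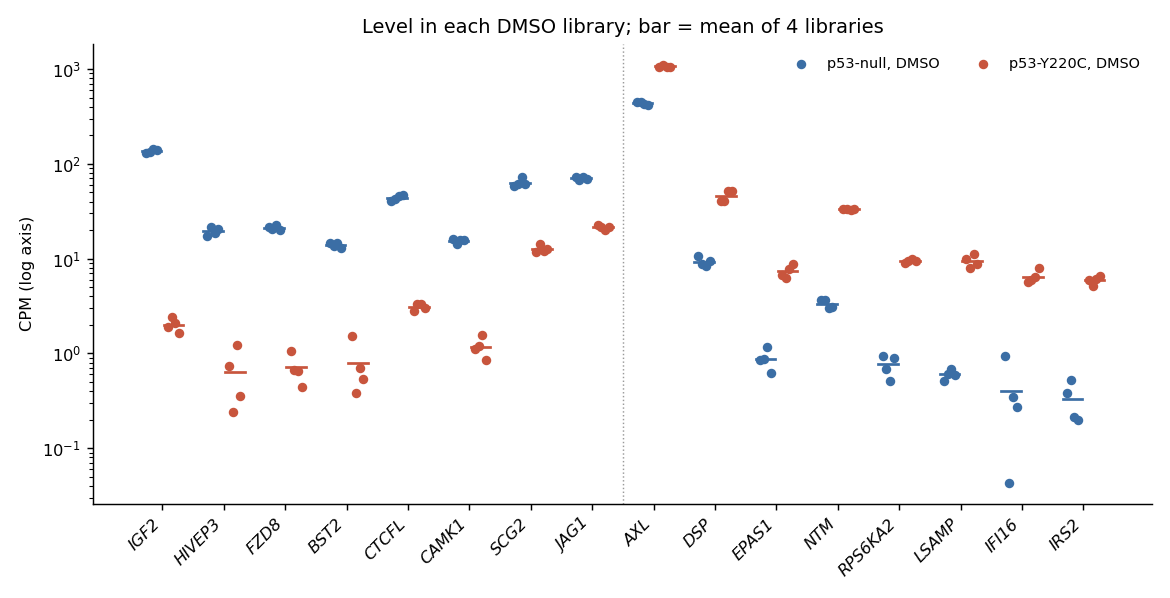
CPM in each of the 4 p53-null (blue) and 4 p53-Y220C (red) DMSO libraries on a log axis, with bars at the mean, for 8 genes that fell (left of the dotted line) and 8 that rose. No gene shown overlaps between the lines, which the choice required of all but SCG2, JAG1 and AXL. The gene furthest left, IGF2, has means of 137 against 2.01 CPM, and the gene furthest right, IRS2, has means of 0.329 against 5.93 CPM.

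Genes read in one line only were few. With at least 20 reads in every library of one line and at most 3 reads in total over the 4 libraries of the other, 3 genes were read only in the p53-null line and 1 only in the p53-Y220C line. TKTL1, a transketolase-like protein of chromosome X (chrX:154295671-154330350), had 123, 107, 112 and 114 reads in the p53-null libraries and 0 reads in all 4 p53-Y220C libraries. Against a floor of 3 reads per library its level was at least 34.6-fold lower in the p53-Y220C line. SCNN1G, a subunit of the epithelial sodium channel (chr16:23182715-23216883), had 34, 34, 44 and 47 reads against 0, 1, 0 and 0. XKR4, of the XK family of membrane proteins, had 22, 20, 32 and 32 reads against 1, 0, 1 and 1. RFPL4AL1 (chr19:55769141-55773179) had 0 reads in all p53-null libraries and 25, 34, 44 and 26 in the p53-Y220C line, at least 11.4-fold above the same floor. It is a near copy of RFPL4A, so the assignment of its reads is uncertain. The number of such genes depended on the limits: it was 13 with at least 10 reads per library and 2 with exactly 0 reads in the other line. In the libraries treated with MS78 the line without reads held 0, 6, 4 and 1 reads of TKTL1, 0, 0, 0 and 1 of SCNN1G, 5, 1, 0 and 0 of XKR4, and 0, 1, 0 and 0 of RFPL4AL1.

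The windows just upstream of 5 of these genes are shown, and each lies outside the GENCODE 29 gene. The 5 were picked from the genes named above and not by rank. Some with larger changes, such as CRH and PLD5, are not shown. Each is the 250 bases before the RefSeq start (GRCh38.p14), written 5′ to 3′ on the gene's strand with every CG dinucleotide, the site of DNA methylation, in capitals. FZD8 (chr10:35642297-35642546, minus strand), HIVEP3 (chr1:42035935-42036184, minus strand) and C1QTNF12 (chr1:1246723-1246972, minus strand) fell and hold 24, 27 and 32 CG. IRS2 (chr13:109786584-109786833, minus strand) and RFPL4AL1 (chr19:55768868-55769117, plus strand) rose and hold 42 and 3.
FZD8: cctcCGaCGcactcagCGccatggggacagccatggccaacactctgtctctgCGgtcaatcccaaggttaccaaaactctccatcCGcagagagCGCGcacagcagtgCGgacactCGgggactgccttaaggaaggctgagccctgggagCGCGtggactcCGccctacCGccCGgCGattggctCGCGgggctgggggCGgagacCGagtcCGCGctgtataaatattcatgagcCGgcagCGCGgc
HIVEP3: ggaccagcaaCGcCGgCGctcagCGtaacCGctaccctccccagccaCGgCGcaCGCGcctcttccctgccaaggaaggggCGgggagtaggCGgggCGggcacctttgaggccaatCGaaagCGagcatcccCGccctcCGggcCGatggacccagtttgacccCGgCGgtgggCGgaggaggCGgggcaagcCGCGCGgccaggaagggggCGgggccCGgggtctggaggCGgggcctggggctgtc
C1QTNF12: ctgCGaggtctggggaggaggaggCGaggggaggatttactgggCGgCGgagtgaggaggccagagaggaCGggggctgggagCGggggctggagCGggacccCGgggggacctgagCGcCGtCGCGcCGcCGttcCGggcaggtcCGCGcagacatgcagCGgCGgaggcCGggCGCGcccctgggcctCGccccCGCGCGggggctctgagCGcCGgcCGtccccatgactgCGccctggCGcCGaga
IRS2: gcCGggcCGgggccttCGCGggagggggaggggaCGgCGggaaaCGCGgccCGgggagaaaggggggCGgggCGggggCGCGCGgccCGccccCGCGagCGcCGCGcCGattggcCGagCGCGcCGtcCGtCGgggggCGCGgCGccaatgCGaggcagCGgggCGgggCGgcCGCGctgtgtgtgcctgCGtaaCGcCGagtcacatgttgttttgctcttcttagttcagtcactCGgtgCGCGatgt
RFPL4AL1: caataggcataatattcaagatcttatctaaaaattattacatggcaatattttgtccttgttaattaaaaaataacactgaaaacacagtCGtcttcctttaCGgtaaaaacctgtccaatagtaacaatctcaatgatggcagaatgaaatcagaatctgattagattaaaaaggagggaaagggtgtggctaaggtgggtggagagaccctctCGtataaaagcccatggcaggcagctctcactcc
Of the 15687 genes tested, 11535 matched a RefSeq window by symbol, and 84.8% of those windows held at least 10 CG. The share was 64.0% for 278 genes that rose at least 2-fold, 73.1% for 420 that fell at least 2-fold and 82.5% for genes not called. The genes past 2-fold were also expressed at lower levels, with a median CPM in the higher line of 1.92 and 3.63 against 27.1 over all genes with a window. The part of expression level in these shares was not tested, and methylation was not measured.

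Known p53 targets fell more often than they rose in the line that carries the mutant. Of 65 listed targets, 59 were tested, and 11 rose (18.6%) and 22 fell (37.3%), against 24.7% and 25.5% over all genes. The median log2 fold change was -0.04, against 0.003 over all genes. The same shares over all genes are the background for every list below. CDKN1A, which encodes the cell cycle inhibitor p21, had 48.6, 54.4, 48.95 and 49.998 CPM in the p53-null libraries and 36.6, 38.2, 38.6 and 36.2 CPM in the p53-Y220C libraries. All p53-Y220C libraries were below the p53-null ones, and it fell 1.35-fold (log2 fold change -0.43 ± 0.05 (SE), adjusted p = 3.53e-07). MDM2 had 17.1, 16.3, 15.7 and 14.4 CPM in the p53-null libraries and 11.8, 11.8, 15.6 and 13.4 CPM in the p53-Y220C libraries. Its groups overlapped, and the 1.21-fold fall (adjusted p = 0.0175) was lost without replicate 1 of both lines (adjusted p = 0.168), without p53-null replicate 1 (0.0607), without p53-Y220C replicate 1 (0.0681) and without p53-Y220C replicate 2 (0.0595).

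The largest falls among the p53 targets were those of a kinase and 2 secreted ligands. PLK2, a polo-like kinase, had means of 34.6 ± 2.93 CPM in the p53-null and 11.2 ± 0.801 CPM in the p53-Y220C line (3.1-fold lower). LIF, a cytokine of the interleukin 6 family, had means of 14.7 ± 0.40 CPM in the p53-null and 5.7 ± 0.902 CPM in the p53-Y220C line (2.58-fold lower). KITLG, the ligand of the receptor KIT, had means of 9.12 ± 1.22 CPM in the p53-null and 4.65 ± 0.584 CPM in the p53-Y220C line (1.96-fold lower). None of the 3 overlapped between the lines. The pro-apoptotic targets BAX, PMAIP1, APAF1 and AEN were among those that fell, and TNFRSF10B and PERP among those that rose.

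Of 27 genes for p53 stability and cofactors, 26 were tested, and 11 rose and 7 fell (median 0.09), none by 2-fold. PPP1R13L, which encodes the p53 inhibitor iASPP, had means of 35.03 ± 2.8 CPM in the p53-null and 62.7 ± 2.41 CPM in the p53-Y220C line (1.79-fold higher, adjusted p = 1.43e-10). MDM4, a partner of MDM2 that inhibits p53, had means of 11.1 ± 1.1 CPM in the p53-null and 16.6 ± 1.51 CPM in the p53-Y220C line (1.49-fold higher, adjusted p = 2.11e-05). TP73, a p53 family member, had means of 8.22 ± 0.576 CPM in the p53-null and 4.38 ± 0.462 CPM in the p53-Y220C line (1.88-fold lower, adjusted p = 2.63e-07). Counts with length-scaled values were 7 and 4 for this list.

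Genes of the G1/S transition and DNA replication fell almost throughout, each by less than 2-fold. All 57 listed genes were tested, and 48 fell and 3 rose (median -0.34), against 25.5% falls over all genes. The share that fell was 84.2%, the highest of the 41 lists. RRM2, the ribonucleotide reductase subunit that limits nucleotide supply, had 392, 419, 384 and 416 CPM in the p53-null libraries and 218, 208, 221 and 210.1 CPM in the p53-Y220C libraries, a 1.88-fold fall (adjusted p = 3.16e-13). The p53-null libraries all lay above the p53-Y220C ones. PCNA, the sliding clamp of DNA polymerases, had means of 151 ± 4.68 CPM in the p53-null and 87.4 ± 2.92 CPM in the p53-Y220C line (1.73-fold lower). E2F1, the transcription factor that drives the programme, had means of 35.98 ± 3.88 CPM in the p53-null and 19.7 ± 1.81 CPM in the p53-Y220C line (1.82-fold lower). Subunits of the replicative helicase (MCM2 to MCM7), of the GINS complex and of replication factor C fell with them. The 3 genes that rose, named after their values were seen, were CCNE1, CCND2 and CDKN1C. CDKN1C, which encodes the CDK inhibitor p57, had means of 1.16 ± 0.186 CPM in the p53-null and 2.58 ± 0.309 CPM in the p53-Y220C line (2.22-fold higher, adjusted p = 5.79e-06).

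Genes of G2 and mitosis did not share that direction. Of 49 tested, 12 rose and 16 fell (median -0.04). CENPE, a kinetochore motor, had means of 40.997 ± 3.41 CPM in the p53-null and 67.7 ± 9.86 CPM in the p53-Y220C line (1.65-fold higher, adjusted p = 2.74e-07). AURKB, the mitotic kinase Aurora B, had means of 101 ± 9.66 CPM in the p53-null and 69.7 ± 5.85 CPM in the p53-Y220C line (1.44-fold lower, adjusted p = 1.57e-06). The proliferation marker MKI67 rose and the mitotic transcription factor FOXM1 fell. Of 30 cluster histone genes tested, 4 rose and 2 fell; most histone mRNAs carry no poly(A) tail, so this library type reads few of them.

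Axon guidance and Wnt genes fell more often than they rose in the p53-Y220C line, while Notch genes were more mixed. Among axon guidance genes, 44 of 53 were tested, and 25 fell (56.8%) and 3 rose (6.8%), with a median of -0.43. Over all genes tested the shares were 25.5% and 24.7%. NTN1, the secreted guidance cue netrin 1, had 8.28, 9.31, 8.32 and 9.65 CPM in the p53-null libraries and 1.11, 0.772, 0.751 and 0.40 CPM in the p53-Y220C libraries, a 11.6-fold fall (adjusted p = 2.76e-11). NRP1, a co-receptor for semaphorins and VEGF, had means of 6.11 ± 0.72 CPM in the p53-null and 0.843 ± 0.381 CPM in the p53-Y220C line (7.14-fold lower). SEMA6B, a transmembrane semaphorin, had 344, 317, 332 and 326 CPM in the p53-null libraries and 86.04, 96.3, 93.5 and 85.1 CPM in the p53-Y220C libraries, a 3.65-fold fall (adjusted p = 1.4e-16). The repellent SLIT2 had means of 1.56 ± 0.142 CPM in the p53-null and 0.362 ± 0.25 CPM in the p53-Y220C line (4.34-fold lower). UNC5B, PLXNA3 and ROBO3 were the 3 that rose.

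In the Wnt list 39 of 60 genes were tested, and 18 fell (46.2%) and 6 rose (15.4%), with a median of -0.20. The other 15 were not called. Beside FZD8, the inhibitor DKK1 had means of 11.4 ± 0.747 CPM in the p53-null and 2.99 ± 0.269 CPM in the p53-Y220C line (3.81-fold lower) and its receptor KREMEN2 had means of 13.1 ± 1.42 CPM in the p53-null and 3.7 ± 0.706 CPM in the p53-Y220C line (3.54-fold lower). The receptors FZD7, FZD4 and LGR4 and the ligands WNT9A, WNT10A and WNT16 fell as well. LEF1, APC and TCF7L2 were among those that rose.

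In the Notch list 26 of 28 genes were tested, and 10 fell (38.5%) and 7 rose (26.9%), with a median of -0.03. Over all genes tested the shares were 25.5% and 24.7%. The ligand JAG1 had 71.7, 68.3, 71.96 and 68.5 CPM in the p53-null libraries and 22.4, 21.3, 20.003 and 21.7 CPM in the p53-Y220C libraries, a 3.28-fold fall with no overlap (adjusted p = 3.36e-15). NRARP, a target and feedback inhibitor of the pathway, had means of 3.93 ± 0.637 CPM in the p53-null and 1.19 ± 0.47 CPM in the p53-Y220C line (3.3-fold lower). DLK1, an imprinted non-canonical ligand, had means of 1.23 ± 0.166 CPM in the p53-null and 0.145 ± 0.103 CPM in the p53-Y220C line, and its fall (adjusted p = 1.3e-06) was not called with length-scaled values (adjusted p = 0.104). The targets HES1 and HES4 and the receptors NOTCH3 and NOTCH4 fell, whereas the ligands DLL1 and DLL3 and the coactivators MAML1, MAML2 and MAML3 rose.

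TGF-beta and BMP pathway genes were mixed, with 14 rises and 16 falls of 46 tested (median 0.02). NOG, the BMP antagonist noggin, had means of 4.69 ± 0.844 CPM in the p53-null and 0.782 ± 0.16 CPM in the p53-Y220C line (5.94-fold lower, adjusted p = 9.97e-10). BMP2, a ligand that noggin binds, had means of 0.821 ± 0.354 CPM in the p53-null and 2.62 ± 0.574 CPM in the p53-Y220C line (3.2-fold higher, adjusted p = 2.99e-05). Neither overlapped between the lines.

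Matrix, protease and integrin genes changed in large numbers, more often downward. Of 58 collagens, laminins and matrix glycoproteins tested, 26 fell and 18 rose (median -0.17), 14 and 6 of them by at least 2-fold. FN1, which encodes fibronectin, had 119, 116, 136 and 134 CPM in the p53-null libraries and 35.4, 32.9, 41.3 and 39.8 CPM in the p53-Y220C libraries, a 3.39-fold fall (adjusted p = 4.31e-14). SPP1, the secreted phosphoprotein osteopontin, had 64.99, 61.1, 64.4 and 56.8 CPM in the p53-null libraries and 17.7, 16.9, 16.9 and 17.3 CPM in the p53-Y220C libraries, a 3.59-fold fall (adjusted p = 5.47e-16). In both genes the lines were far apart. COL9A3, a chain of collagen IX, had means of 7.51 ± 0.853 CPM in the p53-null and 1.59 ± 0.198 CPM in the p53-Y220C line (4.71-fold lower) and MGP, the matrix Gla protein, was read 21 to 32 times per p53-null library and 1 to 5 times per p53-Y220C library.

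Of 37 matrix proteases and inhibitors tested, 19 fell and 7 rose (median -0.21). MMP1, the interstitial collagenase, had means of 6.81 ± 0.352 CPM in the p53-null and 1.8 ± 0.427 CPM in the p53-Y220C line (3.8-fold lower). ADAMTS15, a proteoglycan-cleaving protease, had means of 0.283 ± 0.0292 CPM in the p53-null and 2.43 ± 0.778 CPM in the p53-Y220C line (8.42-fold higher), and PLAT, the tissue plasminogen activator, had means of 3.84 ± 0.888 CPM in the p53-null and 11.1 ± 0.528 CPM in the p53-Y220C line (2.91-fold higher). Of 18 integrins tested, 9 fell and 3 rose (median -0.33). ITGA2, the collagen-binding alpha 2 chain, had 42.5, 44.8, 47.1 and 47.6 CPM in the p53-null libraries and 14.9, 15.6, 15.1 and 15.5 CPM in the p53-Y220C libraries, a 2.98-fold fall (adjusted p = 3.33e-15). ITGB8 had means of 2.47 ± 0.477 CPM in the p53-null and 0.755 ± 0.378 CPM in the p53-Y220C line (3.27-fold lower) and ITGA10 had means of 6.72 ± 0.483 CPM in the p53-null and 2.71 ± 0.33 CPM in the p53-Y220C line (2.48-fold lower). ITGB4, ITGA3 and ITGA5 were the 3 that rose.

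Cadherin and junction genes divided evenly, with 13 rises and 14 falls of 42 tested (median -0.07). NCAM2, a neural adhesion molecule, had means of 4.2 ± 0.274 CPM in the p53-null and 0.309 ± 0.179 CPM in the p53-Y220C line (13.4-fold lower, adjusted p = 5.88e-11). FAT3, an atypical cadherin, had means of 0.126 ± 0.0934 CPM in the p53-null and 1.07 ± 0.107 CPM in the p53-Y220C line and rose (adjusted p = 4.83e-05), which was not called with length-scaled values (adjusted p = 0.741). CADM1, an adhesion molecule of the immunoglobulin superfamily, was read 0 to 3 times per p53-null library and 11 to 39 times per p53-Y220C library. Of 21 mesenchymal genes and their transcription factors tested, 9 fell and 4 rose (median -0.07). PRRX1, a homeobox factor of mesenchyme, had means of 19.5 ± 1.06 CPM in the p53-null and 5.57 ± 0.868 CPM in the p53-Y220C line (3.5-fold lower, adjusted p = 1.12e-12).

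Receptor tyrosine kinases included both strong rises and strong falls. Of 34 tested, 14 rose and 12 fell (median 0.05), 6 and 5 by at least 2-fold. AXL, the receptor for GAS6 and a marker of invasive carcinoma lines, had 453, 444, 424 and 413 CPM in the p53-null libraries and 1049.6, 1105, 1058 and 1038 CPM in the p53-Y220C libraries. The lines were far apart relative to the spread of their libraries, a 2.45-fold rise (adjusted p = 5.76e-17). ROR2, a receptor for non-canonical Wnt ligands, had 0.215, 0.216, 0.172 and 0.196 CPM in the p53-null libraries and 3.43, 4.59, 4.32 and 3.33 CPM in the p53-Y220C libraries, a 19.1-fold rise (adjusted p = 1.67e-11). FGFR2 had means of 0.191 ± 0.0783 CPM in the p53-null and 2.1 ± 0.382 CPM in the p53-Y220C line (10.8-fold higher), and the ephrin receptor EPHA3 had means of 3.85 ± 0.448 CPM in the p53-null and 0.484 ± 0.295 CPM in the p53-Y220C line (7.81-fold lower).

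Of 36 growth factor and IGF axis genes tested, 15 fell and 9 rose (median -0.08). IGFBP2, which binds the IGF ligands, had 2.02, 2.16, 3.23 and 1.96 CPM in the p53-null libraries and 9.17, 12.4, 9.06 and 8.8 CPM in the p53-Y220C libraries, a 4.21-fold rise (adjusted p = 2.19e-10). IGFBP3, the main IGF carrier in serum, had 2.7, 0.388, 0.733 and 0.824 CPM in the p53-null libraries and 2.91, 1.26, 8.22 and 3.96 CPM in the p53-Y220C libraries. Its groups overlapped and its libraries were widely spread, and the 3.51-fold rise (adjusted p = 0.0055) stood at log2 2.77 without replicate 1 of both lines in place of 1.81. ANGPTL4, a secreted inhibitor of lipoprotein lipase, had means of 35.1 ± 4.2 CPM in the p53-null and 15.6 ± 0.659 CPM in the p53-Y220C line (2.25-fold lower). In the IGF axis the ligand IGF2 thus fell while IRS2 and IGFBP2 rose.

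Interferon-stimulated genes, many of which leukocytes also express, changed in both directions. Of 45 tested, 15 rose and 12 fell (median 0.11). SP100, a nuclear body protein, had means of 11.98 ± 1.51 CPM in the p53-null and 29.5 ± 0.217 CPM in the p53-Y220C line (2.46-fold higher) and IFIT3 had means of 3.89 ± 0.808 CPM in the p53-null and 7.73 ± 0.749 CPM in the p53-Y220C line (1.99-fold higher), alongside IFI16. BST2, ISG15, IFITM1, IFITM2 and IFITM3 fell. Without replicate 1 of both lines the counts were 12 and 12. Of 33 antigen presentation genes tested, 12 fell and 3 rose (median -0.05). HLA-F, a non-classical class I gene, had means of 4.12 ± 0.424 CPM in the p53-null and 0.824 ± 0.197 CPM in the p53-Y220C line (4.94-fold lower), and PSMB9, an immunoproteasome subunit, had means of 20.1 ± 1.99 CPM in the p53-null and 7.96 ± 1.69 CPM in the p53-Y220C line (2.52-fold lower). HLA-B, HLA-C, TAP1 and TAP2 fell too. The 3 that rose, ULBP1, RAET1E and ULBP2, are ligands of the activating receptor NKG2D. ULBP1 had means of 10.7 ± 1.21 CPM in the p53-null and 24.2 ± 2.46 CPM in the p53-Y220C line (2.25-fold higher, adjusted p = 2.1e-09) and RAET1E had means of 0.826 ± 0.372 CPM in the p53-null and 2.3 ± 0.483 CPM in the p53-Y220C line (2.78-fold higher, adjusted p = 0.000235). Of 32 cytokines and chemokines tested, 9 rose and 9 fell (median 0.08), and the neutrophil chemokine CXCL2 had means of 79.8 ± 1.73 CPM in the p53-null and 199 ± 5.88 CPM in the p53-Y220C line (2.5-fold higher, adjusted p = 4.85e-13).

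Many lung carcinoma lines express neuronal and neuroendocrine markers. Of 26 tested, 12 fell, 4 rose and 10 were not called (median -0.30), and 8 of the 12 fell at least 2-fold. SCG2, the secretory granule protein secretogranin 2, had 58.5, 61.7, 72.2 and 60.7 CPM in the p53-null libraries and 11.8, 14.2, 12.1 and 12.7 CPM in the p53-Y220C libraries, a 4.98-fold fall (adjusted p = 1.5e-15). NEFH, the heavy neurofilament chain, had means of 54.7 ± 2.93 CPM in the p53-null and 19.4 ± 1.08 CPM in the p53-Y220C line (2.81-fold lower), NEFL, the light chain, had means of 1.16 ± 0.217 CPM in the p53-null and 0.326 ± 0.175 CPM in the p53-Y220C line (3.56-fold lower), and the RNA-binding protein ELAVL3 had means of 2.74 ± 0.445 CPM in the p53-null and 0.688 ± 0.133 CPM in the p53-Y220C line (3.97-fold lower). SYT1, UCHL1, STX1A and CHGB were the 4 that rose.

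Of 17 epithelial markers tested, 6 rose and 2 fell (median 0.60). KRT8 had 179, 179.6, 197 and 166 CPM in the p53-null libraries and 340.1, 350.3, 330.2 and 301 CPM in the p53-Y220C libraries, a 1.83-fold rise (adjusted p = 4.84e-11). KRT18, its partner, rose with it, and MUC1, an apical mucin, had means of 6.58 ± 0.746 CPM in the p53-null and 3.36 ± 1.05 CPM in the p53-Y220C line (1.95-fold lower). Without p53-null replicate 2, without p53-null replicate 4 or without p53-Y220C replicate 3, 3 epithelial markers rose in place of 6.

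Of 11 lung lineage markers tested, 2 rose and 4 fell (median 0.02). SFTPA1, surfactant protein A, had 0.644, 0.0431, 0 and 0 CPM in the p53-null libraries and 1.2, 0.0483, 4.23 and 2.09 CPM in the p53-Y220C libraries. p53-Y220C replicate 2 lay below p53-null replicate 1, so the groups overlapped, and its rise (adjusted p = 0.00656) was not called by DESeq2 (adjusted p = 0.0741). LAMP3, a lysosomal membrane protein of type II pneumocytes and dendritic cells, had means of 5.69 ± 0.161 CPM in the p53-null and 13.9 ± 1.8 CPM in the p53-Y220C line (2.45-fold higher), and FOXA1, an endodermal pioneer factor, had means of 3.69 ± 0.552 CPM in the p53-null and 1.21 ± 0.222 CPM in the p53-Y220C line (3.04-fold lower). Of 7 fibroblast and endothelial markers tested 1 rose and 1 fell, and of 10 kidney and germ cell markers none rose and 3 fell.

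Gene clusters that record cell identity moved differently from one another. Of 39 clustered protocadherin genes tested, 14 fell and 1, PCDHGA1, rose (median -0.22). PCDHB8 was read 74 to 106 times per p53-null library and 2 to 4 times per p53-Y220C library (means of 3.94 ± 0.512 CPM in the p53-null and 0.136 ± 0.0336 CPM in the p53-Y220C line, 27.8-fold lower, adjusted p = 3e-13). PCDHB16 was read 32 to 47 times against 1 to 4 times, and PCDHAC1 had means of 5.46 ± 1.1 CPM in the p53-null and 2.1 ± 0.248 CPM in the p53-Y220C line (2.6-fold lower). Protocadherin genes share exons and similar sequence, so reads may be divided among neighbours. Of 29 HOX genes tested, 9 rose and 2 fell (median 0.15). HOXB13 had means of 3.12 ± 0.395 CPM in the p53-null and 7.36 ± 0.982 CPM in the p53-Y220C line (2.36-fold higher) and HOXD13, at the end of its cluster, had means of 1.16 ± 0.152 CPM in the p53-null and 2.62 ± 0.457 CPM in the p53-Y220C line (2.24-fold higher).

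Of 34 imprinted genes tested, 14 fell and 5 rose (median -0.13). IGF2 and DLK1 led the falls with the noncoding MEG3. PEG3 had means of 5.91 ± 0.435 CPM in the p53-null and 2.4 ± 0.132 CPM in the p53-Y220C line (2.46-fold lower) and NDN had means of 1.48 ± 0.216 CPM in the p53-null and 0.569 ± 0.243 CPM in the p53-Y220C line (2.59-fold lower), and both are expressed from the paternal allele. MAGEL2, CDKN1C, PLAGL1, NAP1L5 and SLC22A18 were the 5 that rose. Of 34 cancer-testis antigen genes tested, 15 rose and 5 fell (median 0.09). The rises were small, 1 of the 15 reaching 2-fold, whereas 3 of the falls did: TKTL1, CTCFL and PAGE2B, with means for PAGE2B of 6.28 ± 0.309 CPM in the p53-null and 1.22 ± 0.392 CPM in the p53-Y220C line (5.14-fold lower). TEX15 and MAGEA1 were the other falls. Many members are near copies of each other, so the split of reads among MAGEA, GAGE and CTAG genes is uncertain.

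**Figure D3:**
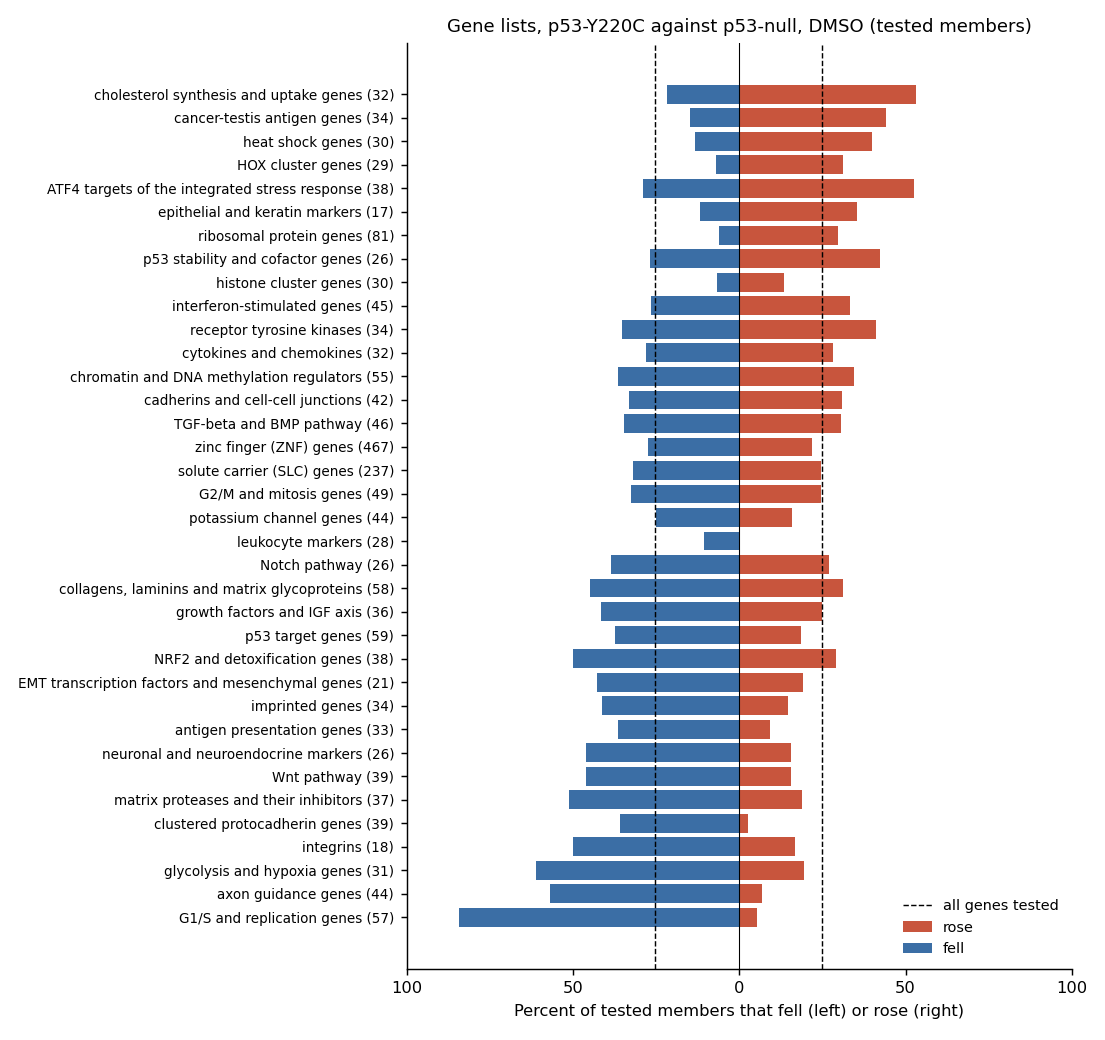
For each list with at least 17 tested members (number in brackets), the bar to the right is the percent that rose and the bar to the left the percent that fell in the p53-Y220C line under DMSO. Dashed lines mark all genes tested, 24.7% and 25.5%; G1/S and replication genes reach 84.2% falls and cholesterol genes 53.1% rises.

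Metabolic and stress lists also departed from an even split. Of 31 glycolysis and hypoxia genes tested, 19 fell and 6 rose (median -0.19). PKM, ALDOC, LDHA and PGK1 fell, while EPAS1 and GPI rose. Of 32 cholesterol synthesis and uptake genes tested, 17 rose and 7 fell (median 0.14). Of 38 tested ATF4 targets, genes of the integrated stress response, 20 rose and 11 fell (median 0.11), and of 38 NRF2 and detoxification genes 11 rose and 19 fell (median -0.10). Of 30 heat shock genes tested, 12 rose and 4 fell (median 0.03). HSPA6, a strictly inducible HSP70, had 0.257, 0.172, 0.172 and 0.157 CPM in the p53-null libraries and 4.03, 4.01, 5.92 and 4.62 CPM in the p53-Y220C libraries, a 23.8-fold rise (adjusted p = 6.25e-13). HSPB8, a small heat shock protein, had means of 0.311 ± 0.127 CPM in the p53-null and 2.89 ± 0.463 CPM in the p53-Y220C line (9.02-fold higher, adjusted p = 3.41e-10). The remaining lists were near an even split or small: chromatin regulators 19 rises and 20 falls of 55, zinc finger genes 102 and 128 of 467, solute carriers 58 and 76 of 237, potassium channels 7 and 11 of 44, ABC transporters 5 and 1 of 9, mitochondrially encoded genes 4 and 2 of 13.

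The rule for named genes also took genes by their difference in CPM, which favours abundant and long genes, and each of those named here changed by less than 2-fold. EEF1A1, the elongation factor 1 alpha, had means of 19052 ± 478 CPM in the p53-null and 22453 ± 608 CPM in the p53-Y220C line (1.18-fold higher). EEF2 had means of 4381 ± 95.2 CPM in the p53-null and 5384 ± 154 CPM in the p53-Y220C line (1.23-fold higher) and PABPC1, the poly(A)-binding protein, had means of 2766 ± 46.9 CPM in the p53-null and 3831 ± 38.5 CPM in the p53-Y220C line (1.38-fold higher). SCD, the stearoyl-CoA desaturase, had means of 3330.1 ± 127 CPM in the p53-null and 4871 ± 163 CPM in the p53-Y220C line (1.46-fold higher), and MT-CO1, a mitochondrially encoded subunit of cytochrome oxidase, had means of 11052 ± 493 CPM in the p53-null and 14036 ± 443 CPM in the p53-Y220C line (1.27-fold higher). ACTB, cytoplasmic beta actin, had means of 3021 ± 65.9 CPM in the p53-null and 1989 ± 27.6 CPM in the p53-Y220C line (1.52-fold lower), PKM had means of 2898 ± 170.5 CPM in the p53-null and 1915 ± 142 CPM in the p53-Y220C line (1.51-fold lower), and TUBB, a beta tubulin, had means of 2149 ± 72.4 CPM in the p53-null and 1429.8 ± 16.2 CPM in the p53-Y220C line (1.5-fold lower). GAPDH fell 1.11-fold (adjusted p = 0.00195) and ACTG1 fell 1.17-fold (adjusted p = 8.31e-06), so common reference genes differed between the lines. ACTG1 was not called with length-scaled values (adjusted p = 0.602). Of 81 ribosomal protein genes tested, 24 rose and 5 fell (median 0.07), none by 2-fold. Over the alternatives these counts ran from 19 to 38 rises and from 2 to 13 falls.

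Noncoding genes were among the clear differences. SLC9A3-AS1 had 4.42, 3.62, 4.57 and 3.96 CPM in the p53-null libraries and 45.6, 53.5, 49.3 and 45.6 CPM in the p53-Y220C libraries, a 11.7-fold rise (adjusted p = 6.24e-17). It lies antisense to SLC9A3, and strand use in the quantification is not given in the sources used here, so reads of the 2 genes may not be told apart. SNHG12, a snoRNA host gene, had means of 2.39 ± 0.405 CPM in the p53-null and 7.86 ± 0.63 CPM in the p53-Y220C line (3.28-fold higher). NR2F1-AS1 had means of 13.4 ± 0.433 CPM in the p53-null and 4.92 ± 0.471 CPM in the p53-Y220C line (2.71-fold lower), with the same limit on strand, and the pseudogene FAM3C2P had means of 42.4 ± 9.42 CPM in the p53-null and 15.3 ± 3.04 CPM in the p53-Y220C line (2.77-fold lower), which shares sequence with FAM3C.

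The direction of change was uneven along the genome. On chromosome 10, 311 of 603 genes tested rose (51.6%) and 70 fell (11.6%), with a median log2 fold change of 0.27. On chromosome 20, 52 of 389 rose (13.4%) and 167 fell (42.9%), with a median of -0.14. In bins of 10 Mb with at least 20 tested genes, placed by gene start in GENCODE 29, whole stretches shared a direction. Between 80 and 90 Mb of chromosome 10, 26 of 41 genes rose and none fell, and between 90 and 100 Mb 54 of 64 rose and 1 fell (median 0.48). PCGF5, a Polycomb group RING finger protein in the latter bin, had means of 25.5 ± 1.9 CPM in the p53-null and 66.3 ± 4.26 CPM in the p53-Y220C line (2.6-fold higher), and ANKRD1, a target of YAP, had means of 0.305 ± 0.046 CPM in the p53-null and 2.5 ± 0.523 CPM in the p53-Y220C line (8.08-fold higher). Between 110 and 120 Mb of chromosome X, 23 of 27 genes rose and none fell (median 0.47). There DOCK11, a guanine nucleotide exchange factor, had means of 3.84 ± 0.55 CPM in the p53-null and 14.3 ± 1.37 CPM in the p53-Y220C line (3.72-fold higher), the angiomotin gene AMOT had means of 14.7 ± 1.28 CPM in the p53-null and 33.7 ± 2.78 CPM in the p53-Y220C line (2.29-fold higher), and the decoy receptor IL13RA2 had means of 44.3 ± 3.14 CPM in the p53-null and 91.8 ± 1.91 CPM in the p53-Y220C line (2.07-fold higher).

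On chromosome 19 the direction turned between neighbouring bins. Between 30 and 40 Mb 118 of 170 genes rose and 6 fell (median 0.46), and between 40 and 50 Mb 126 of 246 rose and 43 fell (median 0.31), whereas between 50 and 60 Mb 99 of 204 fell and 6 rose (median -0.27). The lowest medians were those of chromosome 2 between 240 and 250 Mb (19 of 25 fell, 1 rose, median -0.40), chromosome 22 beyond 50 Mb (20 of 30 fell, none rose, median -0.36) and chromosome 20 beyond 60 Mb (40 of 55 fell, 2 rose, median -0.35). In the MS78 libraries the medians of these 3 bins were -0.41, -0.52 and -0.54, and those of the chromosome 10 and X bins named were 0.36, 0.55 and 0.53. The bins were singled out after their values were seen. The files hold no measure of DNA copy number, and its part in these stretches was not tested.

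**Figure D4:**
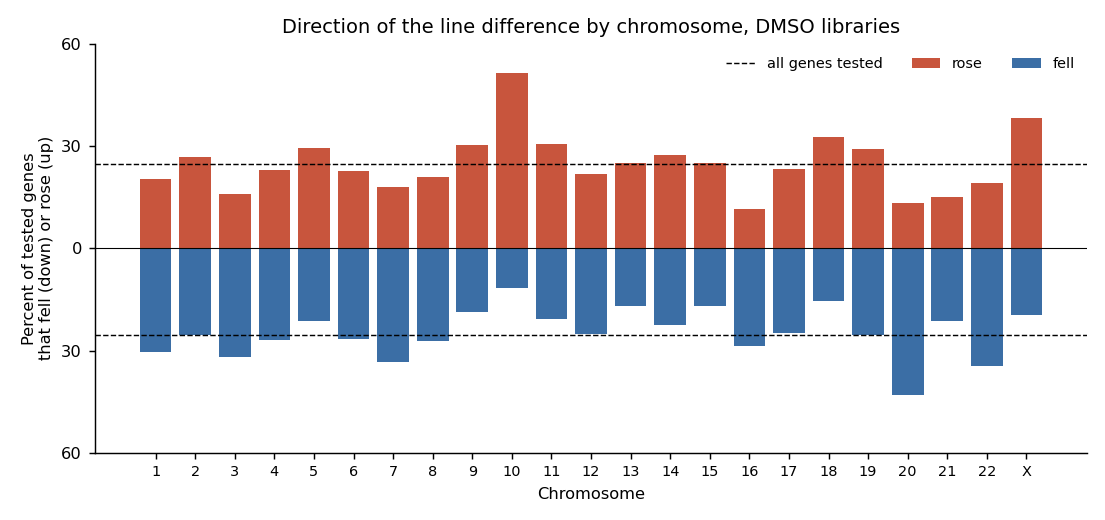
Percent of the tested genes of each chromosome that rose (up) and fell (down) in the p53-Y220C line under DMSO, with dashed lines at the values over all genes tested (24.7% and 25.5%). Chromosome 10 has the most rises (51.6%) and chromosome 20 the most falls (42.9%).

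Libraries of cells given MS78 shared no library with this comparison, though they entered the same fit. There 9699 genes (61.8%) were called between the lines. Of the 7875 genes called under DMSO, 5947 (75.5%) were called in the same direction under MS78, 296 in the opposite direction and 1632 not at all. Among the 1050 genes past 2-fold, 877 were called in the same direction and 2 in the opposite one, and among the 123 past 8-fold, 110 and 0. The line difference itself changed between treatments for 4197 genes (26.8%), 174 of them among the 1050. IGF2 was at log2 -6.09 under DMSO and -6.34 under MS78, IRS2 at 4.16 and 4.04, and FZD8 at -4.87 and -4.69, with interaction adjusted p of 0.359, 0.809 and 0.761. CDKN1A turned from -0.43 to 0.58 (interaction adjusted p = 7.07e-10), so it was lower in the p53-Y220C line with vehicle and higher with MS78. EEF1A1 turned from 0.24 to -0.21 (interaction adjusted p = 3.8e-07). HSPA6 had the largest shift of the genes named here, from 4.58 to 10.64 (interaction adjusted p = 1.51e-07).

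**Figure D5:**
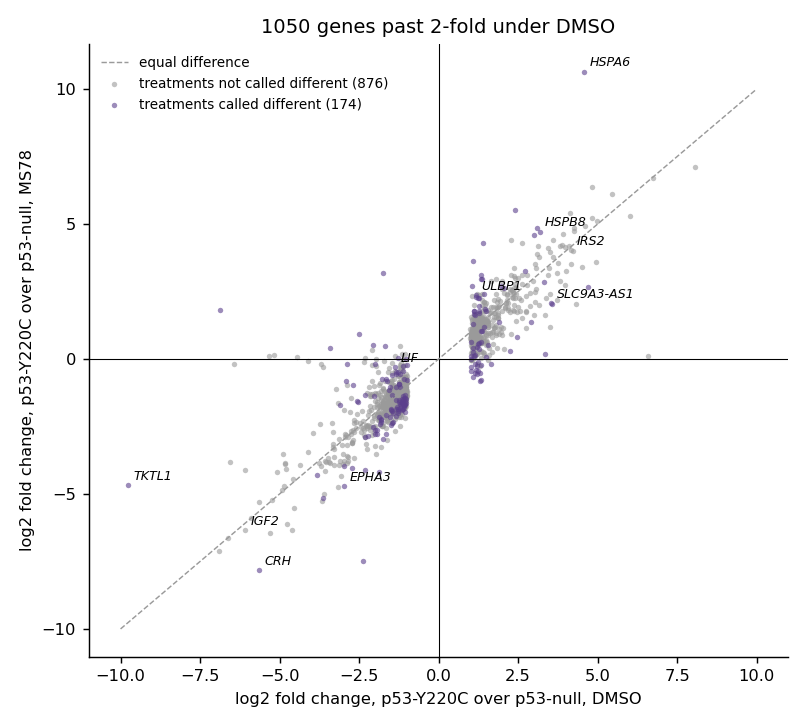
Each point is 1 of the 1050 genes past 2-fold under DMSO, placed by its log2 fold change of the p53-Y220C over the p53-null line in the DMSO libraries and in the MS78 libraries; the dashed line marks equal differences. Purple points (174) are genes whose difference changed between treatments at an interaction adjusted p of 0.05; the others (876) lie mostly along the line.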

How the data were processed

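The deposited tables hold estimated counts per transcript for 16 libraries, 4 in each of 4 groups of line and treatment, in the layout that Salmon writes. Per the submitters' processing notes, FastQC 0.11.8 and genome build hg38 were used; no source used here gives the quantifier's version, annotation or strand setting. The authors deposited TPM (transcripts scaled to length and library) in the same tables, per the file headers, and these served only for the length-scaled alternative. The deposited estimated counts were summed per gene with GENCODE 29, by transcript ID without version (97.8% of transcripts matched), and rounded. edgeR 4.0.16 (R 4.3.3) fitted 1 mean per group to all 16 libraries (12 residual degrees of freedom) after its default filter on low counts and TMM scaling, with a quasi-likelihood test and Benjamini-Hochberg adjustment over the 15687 of 56865 genes tested. CPM are reads over the TMM-scaled total (scaled to 1e6), not corrected for gene length, so levels are compared within a gene only. The SE is the log2 fold change over the square root of its F value. The script was tested on simulated counts. No pair of replicates within a group agreed within sampling noise (chi-square per gene of 2.83 or more).

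The members of the lists, the lists and the tests were chosen with earlier results of these data known. Named genes are CDKN1A and MDM2 whatever their values; protein-coding genes past the threshold whose lines do not overlap and whose higher line averages at least 5 CPM, up to the 10 largest changes and the 5 largest differences in level in each direction; genes read in one line only; up to 4 members per list with at least 1 CPM; up to 3 noncoding genes in each direction; and up to 4 genes per bin. Not all of these are named; those that are follow their rank. Members named without values were chosen after their values were seen. Some genes that the rule took are not reported here. No check of the line labels on the level of a gene is given. 4 listed symbols matched no gene. Alternatives were DESeq2 1.42.0, other scalings and filters, length-scaled counts, only the DMSO libraries, a replicate block, a term for leukocyte reads, and leaving out libraries.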

Additional observations from a re-analysis of the deposited data

Results flagged for a closer look

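In 17 of 230 sets of 4 libraries examined (114 named genes and the summed leukocyte markers in each line), 1 library stood apart from the other 3 by more than Dixon's 95% limit. Chance alone gives about 1 in 20 sets of normally spread values, which values of a few reads are not. In p53-null replicate 1 the values that stood apart were LIF at 15.3 CPM (others 14.5 to 14.6), SFTPA1 at 0.644 CPM (others 0 to 0.0431) and HSPA6 at 0.257 CPM (others 0.157 to 0.173). The same library held the summed leukocyte markers at 171 CPM (others 91.5 to 98.2). In p53-null replicate 2 the values that stood apart were ITGA10 at 5.99 CPM (others 6.94 to 6.99). In p53-null replicate 3 the values that stood apart were PLD5 at 6.64 CPM (others 5.75 to 5.81), GAPDH at 9153 CPM (others 8126 to 8261) and IGFBP2 at 3.23 CPM (others 1.96 to 2.16). In p53-null replicate 4 the values that stood apart were PABPC1 at 2836 CPM (others 2738 to 2747). In p53-Y220C replicate 1 the values that stood apart were DLK1 at 0.300 CPM (others 0.0889 to 0.0966) and the summed leukocyte markers at 151 CPM (others 64.4 to 75.7). In p53-Y220C replicate 2 the values that stood apart were SCNN1G at 0.0483 CPM (others 0), XKR4 at 0 CPM (others 0.0429 to 0.0470) and IGFBP2 at 12.4 CPM (others 8.80 to 9.17). For SCNN1G and XKR4 this is a difference of 1 read. The same library held PCDHB16 at 0.0483 CPM (others 0.171 to 0.188). In p53-Y220C replicate 3 the values that stood apart were ITGB8 at 1.32 CPM (others 0.483 to 0.622). In p53-Y220C replicate 4 the values that stood apart were TP73 at 5.07 CPM (others 4.10 to 4.20).

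For 45 of the 114 named genes the line difference itself differed between treatments at an adjusted p of 0.05 (edgeR interaction contrast, 4197 of all 15687 genes, 26.8%). The values that follow are the log2 fold change under MS78 minus that under DMSO, so a negative value is a shift toward lower levels in the p53-Y220C line, with the adjusted p in brackets. Genes whose difference had opposite signs under the treatments were EEF1A1 -0.45 (3.8e-07), CDKN1A 1.01 (7.07e-10) and CENPE -0.75 (8.96e-05). Genes that rose under DMSO and stood further up under MS78 were MGLL 0.55 (0.0223), IFIT3 1.23 (7.1e-05), ULBP1 1.19 (3.53e-06), HSPA6 6.06 (1.51e-07), HSPB8 1.55 (0.00237) and ANKRD1 1.59 (0.00329). Genes that rose under DMSO and stood closer to even under MS78 were NTM -0.45 (0.00526), PABPC1 -0.14 (0.0138), EEF2 -0.10 (0.0486), SLC9A3-AS1 -1.48 (4.96e-08), MDM4 -0.37 (0.0438) and CXCL2 -0.29 (0.0159). Others were KRT8 -0.38 (0.000827) and HOXB13 -0.67 (0.0151). Genes that fell under DMSO and stood further down under MS78 were CRH -2.19 (0.00152), CTCFL -0.45 (0.0161), C1QTNF12 -1.49 (0.0241), ACTB -0.30 (3.9e-05), PKM -0.27 (0.00426) and GAPDH -0.36 (2.23e-05). Others were TUBB -0.18 (0.00675), ACTG1 -0.19 (0.00356), TP73 -0.61 (0.00594), RRM2 -0.64 (9.09e-08), E2F1 -0.51 (0.00742) and PCNA -0.21 (0.0245). Further ones were KREMEN2 -0.50 (0.0489), SEMA6B -0.30 (0.00399), COL9A3 -0.61 (0.0384), SPP1 -0.57 (3.35e-05), MMP1 -0.72 (0.00303) and ITGA10 -0.48 (0.0316). Also in this set were PRRX1 -0.44 (0.0164), EPHA3 -1.75 (0.0265), SCG2 -0.59 (0.000506), NEFH -0.40 (0.00126) and AURKB -0.62 (0.000128). Genes that fell under DMSO and stood closer to even under MS78 were TKTL1 5.07 (0.00354), PLK2 0.82 (1.94e-06), LIF 1.06 (1.56e-06), NOG 1.00 (0.00581) and HLA-F 0.97 (0.0132). The TKTL1 shift is a fitted value at the floor. In the p53-Y220C line it rests on 0 reads in every DMSO library and 0, 6, 4 and 1 reads with MS78.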

How the results depend on the processing

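Over 19 alternatives the count of genes called ranged from 6157 with length-scaled values to 8244 with only the DMSO libraries and a replicate block, against 7875, and from 7270 to 7798 with 1 DMSO library left out. The share that rose was 49.3% of the calls and 44.4% with library totals alone. No scaling moved the median over all genes by more than 0.025 on the log2 scale. Of 114 named genes, 109 kept their side of the threshold and direction under every alternative run, and the 5 exceptions were ACTG1, MDM2, DLK1, FAT3 and SFTPA1. None reversed.

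The labels share replicate numbers between the lines. Same-numbered libraries deviated together for number 1 (correlation 0.45) but less or not for the others (0.18, -0.06 and 0.15). Pairs with different numbers ran from -0.22 to 0.16. LIN28A, named after its values were seen, was highest in replicate 2 of both lines. It had 6.60 CPM in the p53-null line (others 2.43 to 3.35) and 5.21 CPM in the p53-Y220C line (others 1.71 to 2.67). POU5F1, DPPA4, TDGF1 and SALL4 did likewise, the last 3 at 2.07 CPM or less. LIN28B, NANOG and the other kidney and germ cell markers listed did not in both lines. The main fit did not pair samples by number, and whether same-numbered libraries share a batch was not tested. With a replicate block in the fit of 16 libraries 7774 genes were called, 7663 of them shared. Among the 8 DMSO libraries the count was 7526 without and 8244 with the block.

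The number of genes read in one line only, 4, was 13 with at least 10 reads per library, 2 with 0 reads in the other line, 7 with at most 3 reads in each library of the other line, 7 without replicate 1 of both lines, and 4 to 6 with 1 library left out. Counts of list members that moved by over 1.5 times when 1 library was left out were small ones. Epithelial rises (6) were 3 without p53-null replicate 2, p53-null replicate 4 or p53-Y220C replicate 3, and ran from 3 to 9 over all alternatives. Epithelial falls (2) were 1 without p53-null replicate 2 or p53-Y220C replicate 3. Axon guidance rises (3) were 5 without p53-null replicate 1 or 3, and lung lineage rises (2) were 4 without p53-null replicate 1. Histone falls (2) were 4 without p53-null replicate 2, and ribosomal protein falls (5) were 3 without p53-null replicate 1, p53-null replicate 2 or p53-Y220C replicate 4. Over all alternatives fibroblast and endothelial rises (1) ran from 0 to 3 and falls (1) from 1 to 2, and mitochondrially encoded rises (4) from 3 to 7 and falls (2) from 0 to 4. With only the DMSO libraries and a replicate block 38 ribosomal protein genes rose and 13 fell, with library totals alone 10 fell, with no filter on low counts 9 fell, and with length-scaled values 2 fell. Length-scaled values lowered cofactor counts to 7 and 4 and Wnt rises from 6 to 3. The cause of these moves was not tested. Genes with under 20 reads per library in both lines are limited by depth.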
